A study of Mus musculus with 5 samples.

Results

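The genes described here carry the TGF-β signal from the cell surface to chromatin: the ligand gene Tgfb1, the receptor genes Tgfbr1 and Tgfbr2, the SMAD genes Smad2, Smad3, Smad4, Smad6 and Smad7, and the corepressor genes Ski and Skil. They are 10 of 21924 protein-coding genes. They were listed by function, and a peak was counted for one of them when the midpoint of the peak had a transcription start site (TSS) of that gene as its nearest protein-coding TSS. The peaks came from RXRα HT-ChIPmentation of alveolar macrophages (AMs), an assay that inserts the sequencing adaptors with a transposase while the immunoprecipitated chromatin is still on the beads. AMs were taken by bronchoalveolar lavage from mice 9 wk old and sorted. All mice carried floxed Rxra and Rxrb alleles. The 2 WT libraries (WT A and WT G) were CD11cCre- Rxrabfl/fl, and the 2 KO libraries (KO A and KO G) were CD11cCre+ Rxrabfl/fl. The fifth of the 5 samples was an input, against which the authors called the peaks of each library. Cre under Cd11c control is also active in other cells that express Cd11c, and the labels do not say whether A and G were separate animals or pools, so the spread between libraries may be technical.

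RXRα is a nuclear receptor that binds DNA as a dimer with itself or with partners such as PPARγ, on repeats of a short half-site. TGF-β binds the type II receptor TGFBR2, which recruits and phosphorylates the type I receptor TGFBR1. The active receptor phosphorylates SMAD2 and SMAD3, which enter the nucleus with SMAD4. SMAD6 and SMAD7 inhibit the pathway at the receptor, and SKI and SKIL (also called SnoN) bind the SMAD complex and repress its targets. AMs depend on TGF-β for their development and upkeep.

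The lists differed in length and depth. WT A had 4751 peaks and WT G 9766, while KO A had 83 and KO G 208. Depth, derived from the peak values and given relative to the input, ran from 0.237 (WT G) to 1.13 (WT A), with KO A at 0.648 and KO G at 0.849, so the longest list came from the shallowest library. The median peak rested on 16 fragments at the summit in WT A and on 8 in WT G. Regions bound in both WT lists numbered 3423. A partner in the other WT list was found for 83.2% of WT A peaks and for 36.1% of those in WT G. Of 10 AM marker genes, 8 were the nearest gene of a region that both WT lists held, and of 12 marker genes of T cells, B cells, neutrophils and alveolar epithelium 1 was (the B cell gene Ms4a1). Over all protein-coding genes the share was 8.82%, so the 1 of 12 was near the background. Peaks do not measure expression, and the deletion of the receptor genes was not checked here from these lists.

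RXRα peaks lay at the type II receptor gene and at both corepressor genes in both WT lists. Tgfbr2 was nearest to 6 peaks in WT A and 11 in WT G, Ski to 5 and 12, and Skil to 2 and 5. Tgfb1 and Smad7 each had 1 peak in WT G and 0 in WT A. Tgfbr1, Smad2, Smad3, Smad4 and Smad6 had 0 in every list. No gene of the 10 had a peak in KO A or KO G. Thus 3 of the 10 genes were nearest to a peak in WT A and 5 of the 10 in WT G. Over all protein-coding genes 10.4% were nearest to a WT A peak, 16.6% to a WT G peak, 0.351% to a KO A peak and 0.858% to a KO G peak. A region present in both WT lists was nearest to 3 of the 10 genes, Tgfbr2, Ski and Skil, against 8.82% of all protein-coding genes.

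**Figure D1:**
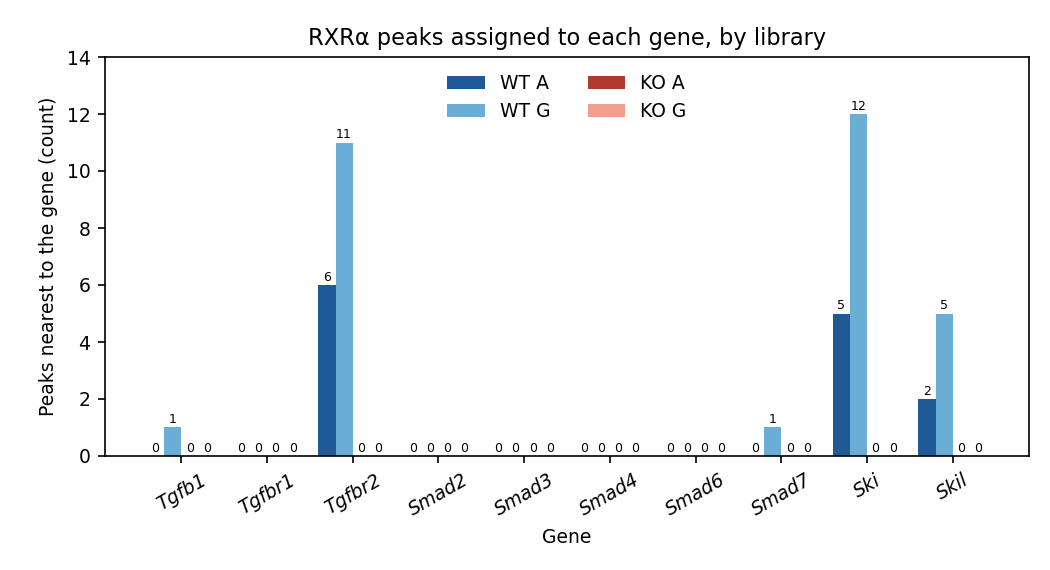
Number of RXRα peaks nearest to each of the 10 genes (y axis, count) in the WT A, WT G, KO A and KO G lists. Tgfbr2, Ski and Skil carried peaks in both WT lists, with 11, 12 and 5 peaks in WT G, and both KO lists were at 0 for every gene.

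The windows shown run from 50 bp before to 50 bp after the summit of the strongest WT peak (mm10, plus strand, 5′ to 3′), for the strongest region of each of the 3 genes and for the other regions with an exact copy of the RXR half-site AGGTCA. Capitals mark every match to a motif searched, on either strand. Tgfbr2 is shown at chr9:116077548-116077648, Ski at chr4:155217542-155217642 and chr4:155201297-155201397, and Skil at chr3:31093771-31093871 and chr3:31095829-31095929.
Tgfbr2, 6.38 kb past the 3′ end: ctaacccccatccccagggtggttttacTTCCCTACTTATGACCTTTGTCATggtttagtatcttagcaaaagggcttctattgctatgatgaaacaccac
Ski, intron 1, strongest: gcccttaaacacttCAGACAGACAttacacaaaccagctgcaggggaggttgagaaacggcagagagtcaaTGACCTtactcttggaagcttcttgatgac
Ski, intron 1, 21.4 kb from the TSS: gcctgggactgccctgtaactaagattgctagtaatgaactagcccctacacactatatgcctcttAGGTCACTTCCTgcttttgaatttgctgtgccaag
Skil, upstream: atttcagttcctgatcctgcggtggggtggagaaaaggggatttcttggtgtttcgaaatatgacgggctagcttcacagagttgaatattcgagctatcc
Skil, intron 1: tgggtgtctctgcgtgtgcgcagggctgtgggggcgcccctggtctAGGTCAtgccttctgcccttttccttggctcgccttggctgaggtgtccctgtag
In the Tgfbr2 window the capitals hold a DR1, 2 half-sites 1 base apart, which reads ATGACAAAGGTCA on the minus strand with 2 mismatches to the consensus and is centred 5 bp from the WT A summit. The Skil upstream window held no match to any motif searched.

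Tgfbr2, the gene of the type II receptor, spans chr9:116084293-116175360 on the minus strand (ENSMUSG00000032440.13). Its 5 regions in both WT lists ran from 2.88 kb upstream of the TSS to 97.5 kb downstream of it. The strongest, by its ranks in the lists, was chr9:116077545-116077916, in intergenic sequence past the 3′ end of the gene. There the fold enrichment over background was 8.29 in WT A (−log10 q 10.2, 20 fragments at the summit) and 7.09 in WT G (−log10 q 6.88, 10 fragments). This is the region of the DR1 window. The summits of the lists were 214 bp apart, and the DR1 lay inside the WT A peak and outside the WT G peak. Its nearest TSS of any kind was that of a pseudogene, Gm9385, so it was assigned to Tgfbr2 only when protein-coding genes alone were considered. The upstream region, chr9:116177914-116178558, had a fold enrichment of 5.34 in WT A (17 fragments) and 7.09 in WT G (10 fragments), with summits 21 bp apart. Its place in the order of fold enrichment differed between the lists, at the 17.0 percentile in WT A and the 73.6 percentile in WT G.

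Of the other 3 Tgfbr2 regions, chr9:116169236-116169506 and chr9:116160399-116160773 lay in intron 1, at 5.89 and 14.7 kb from the TSS, and chr9:116136814-116137294 lay in intron 2, at 38.2 kb. The fold enrichment at 5.89 kb was 6.72 in WT A and 5.16 in WT G. At 14.7 kb it was 6.26 in WT A and 5.65 in WT G. At 38.2 kb it was 5.33 in WT A and 6.87 in WT G. These 3 regions rested on 14 to 16 fragments in WT A and 7 to 10 in WT G. The intron 2 region was the only one of a group of 5 WT G peaks within 3.37 kb, chr9:116135788-116139155, to overlap a WT A peak. The fold enrichments of that group ran from 4.58 to 7.09. WT A held 1 Tgfbr2 peak with no partner in WT G, chr9:116111703-116111838 in intron 4, with a fold enrichment of 6.70. Introns of the gene held 4 of the 6 peaks in WT A and 9 of the 11 in WT G.

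Ski encodes a corepressor of the SMAD complex and spans chr4:155154075-155222592 on the minus strand (ENSMUSG00000029050.15). All 5 of its regions in both WT lists, and all its 5 WT A and 12 WT G peaks, lay in intron 1. The strongest region, chr4:155217127-155218073 at 4.93 kb from the TSS, was the strongest of the 12 regions of the 3 genes. Its fold enrichment was 10.6 in WT A (−log10 q 15.8, 26 fragments) and 11.6 in WT G (−log10 q 15.9, 17 fragments), at the 93.7 and 97.0 percentiles of the lists. The summits were 31 bp apart. The WT G summit lay 23.5 bp from a half-site and 29.5 and 33.5 bp from a pair of overlapping CAGACA boxes, the letters SMAD3 and SMAD4 recognise, as capitalised in the strongest Ski window.

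A group of 7 WT G peaks covered 4.45 kb around that region, chr4:155215468-155219914, with fold enrichments from 5.13 to 11.6, and 2 WT A peaks lay in the same stretch. The second WT A peak there belonged to the region at 6.92 kb, chr4:155215468-155215753, with a fold enrichment of 5.15 in WT A (12 fragments) and 5.80 in WT G (8 fragments). Farther into the intron, the region at 16.4 kb, chr4:155205637-155206686, had a value of 5.93 in WT A but 8.38 in WT G. The region at 21.4 kb, chr4:155200745-155201559, had 7.11 in WT A and 8.38 in WT G. In these 2 regions the WT G peaks were 1050 and 815 bp wide, the WT A peaks 124 and 239 bp wide, and the summits 459 and 441 bp apart, so the lists placed the highest point differently. The region at 59.0 kb, chr4:155163349-155163706, had 6.32 in WT A and 5.16 in WT G.

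Skil encodes the related corepressor SnoN and spans chr3:31095058-31122577 on the plus strand (ENSMUSG00000027660.16). Both of its regions in both WT lists lay near its start. The stronger, chr3:31093607-31094112, was 1.2 kb upstream of the TSS, with a fold enrichment of 8.68 in WT A (−log10 q 11.3, 21 fragments) and 10.3 in WT G (−log10 q 13.2, 15 fragments). Its summits were 8 bp apart, the smallest gap among the 12 regions. The other, chr3:31095787-31096233, lay in intron 1 of the longest transcript and in the promoter of a shorter one, 0.823 kb upstream of that start. It had a fold enrichment of 7.11 in WT A (17 fragments) and 7.09 in WT G (10 fragments), with summits 162 bp apart. An exact half-site was centred 1.5 bp from its WT A summit and lay outside its WT G peak. The 3 WT G peaks with no WT A partner lay 38.0 and 33.5 kb upstream and in intron 2, with fold enrichments of 4.51, 5.80 and 5.16.

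**Figure D2:**
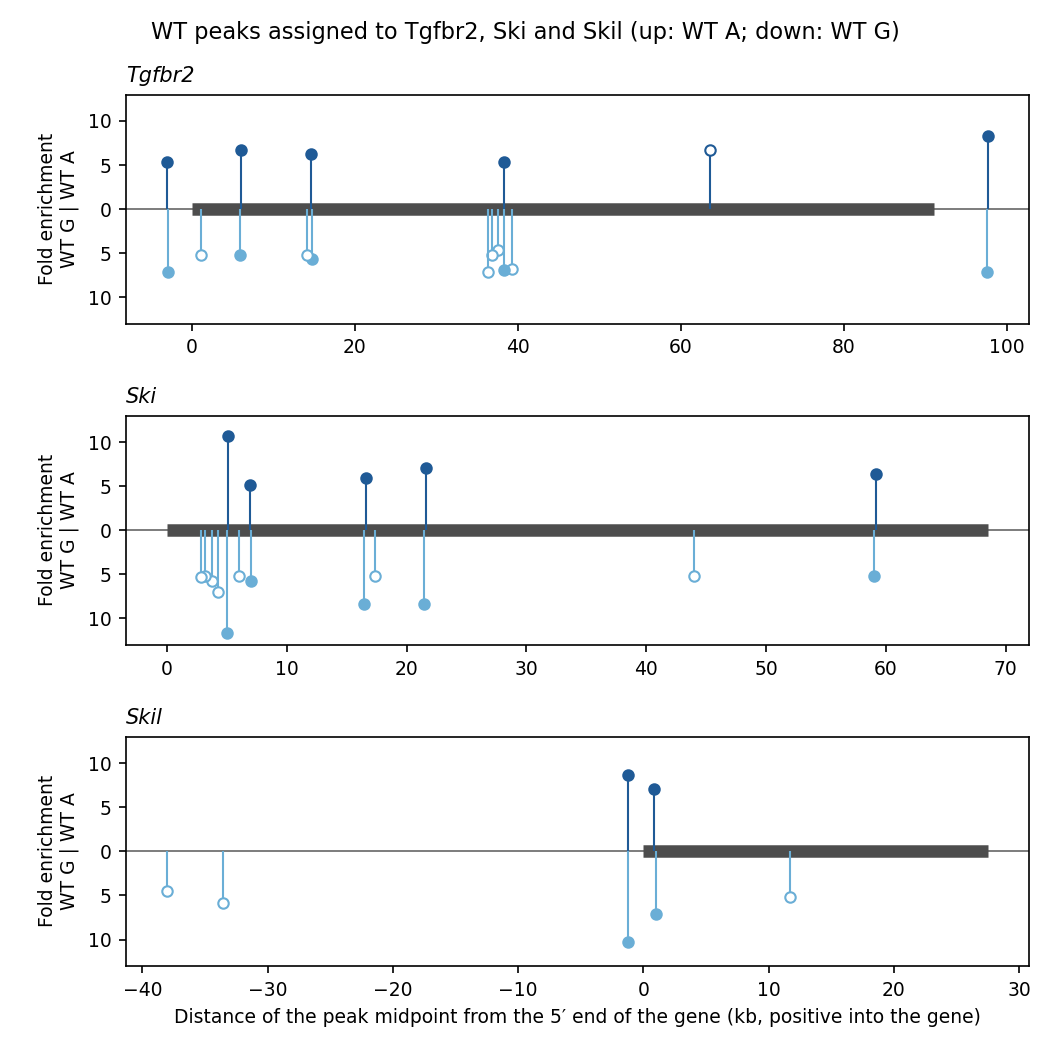
Fold enrichment of each WT peak assigned to Tgfbr2, Ski and Skil (y axis, WT A upward and WT G downward) against the distance of its midpoint from the 5′ end of the gene record (x axis, kb). Filled points overlap a peak of the other WT list, open points do not, and the dark bar is the gene. Within 10 kb of the Ski start lie 7 of the 12 WT G peaks, up to 11.6, and 2 of the 5 WT A peaks, up to 10.6, and the 5 Tgfbr2 peaks of WT G near 38 kb stand beside 1 WT A peak.

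Few genes carried as many regions as Tgfbr2 and Ski. Genes with at least 5 regions in both WT lists numbered 89, or 0.406% of protein-coding genes, and those with at least 2, as Skil had, numbered 719 (3.28%). The stretch in which a gene's TSSs were the nearest differed among the 3, at 658 kb for Tgfbr2, 81.7 kb for Ski and 78.0 kb for Skil, against a median of 47.0 kb over all protein-coding genes. Genes with many regions had longer stretches, with a median of 189 kb for the 89 genes and 112 kb for the 719. Tgfbr2 was above the median of the 89, Ski below it, and Skil below that of the 719. The density of shared regions was thus 6.12 per 100 kb at Ski, 2.56 at Skil and 0.76 at Tgfbr2. Over all genes it was 0.129, and over all 10 genes 0.55. These densities are a description, since regions at one gene are not replicates. The counts and densities also hold for the main settings only. The shared regions of the 3 genes fell from 12 to 7 with −log10 q of at least 5, and to 5 with an overlap of at least 50% of both peaks.

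The peaks of the 10 genes had median fold enrichments near those of all peaks in the same list. Of the 13 WT A peaks 12 overlapped a WT G peak (92.3%, beside 83.2% of all WT A peaks), and of the 30 WT G peaks 12 overlapped a WT A peak (40%, beside 36.1%). The median fold enrichment of the 13 WT A peaks was 6.70, from 5.15 to 10.6, and that of all WT A peaks was 6.32. The median of the 30 WT G peaks was 5.72, from 4.51 to 11.6, and that of all WT G peaks was 5.80. Among WT G peaks the 12 with a WT A partner had a median of 7.09 and the 18 without one a median of 5.16. Over all WT G peaks those medians were 7.22 and 5.73.

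Over the 12 shared regions the median percentile of fold enrichment was 50.5 in WT A and 73.6 in WT G, and over all 3423 shared regions it was 55.4 and 77.9. The 12 were 464 bp wide in the median (574 bp over all), 10.8 kb from the TSS (15.7 kb) and 136 bp apart in their summits (96 bp). Summits lay within 100 bp of each other in 5 of the 12 and in 51.8% of all shared regions. By annotation 8 of the 12 were intronic, 3 intergenic and 1 in a promoter, and over all shared regions the shares were 50.8%, 31.5% and 10.8%.

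**Figure D3:**
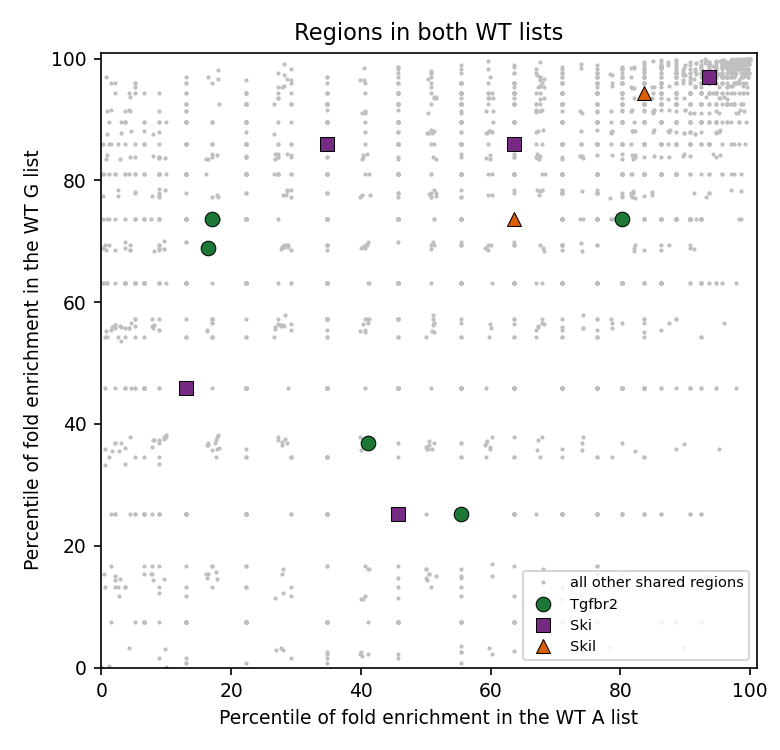
Percentile of fold enrichment within the WT A list (x axis) and within the WT G list (y axis) for each of the 3423 regions in both lists. Grey points are all other regions, and coloured points are the 12 regions of Tgfbr2, Ski and Skil. The strongest Ski and Skil regions lie at the upper right, at 93.7 and 97.0 and at 83.6 and 94.4, and the other 10 spread over both ranges.

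Motif matches were then counted in the windows of the 12 regions. The DR1 (AGGTCANAGGTCA, at most 2 mismatches) matched in 1 of 12, at Tgfbr2 and inside the WT A peak only, and in 6.34% of all shared regions. The DR5 (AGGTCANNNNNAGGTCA, at most 2 mismatches) matched in the same Tgfbr2 window, sharing a half-site with the DR1, and in 2.57% of all. The DR4 (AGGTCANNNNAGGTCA, at most 2 mismatches) matched in 0 of 12 and in 1.90% of all. The exact half-site AGGTCA, which the repeats contain, occurred in 4 of 12 and in 15.2% of all. The half-site lay inside the peaks of both WT lists in 1 of those 4, the strongest Ski region. Thus most of the 12 windows held none of the receptor repeats in these letters.

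For other factors of macrophages, PU.1 (AGGAAGTG) matched in 2 of 12, both at Ski, and in 4.62% of all. In the Ski region at 21.4 kb it overlapped the half-site, and both lay inside the WT G peak only. The other PU.1 match lay inside a WT A peak only. C/EBP (TTGCNNAA) matched in 1 of 12, inside a WT G peak only, and in 11% of all, AP-1 (TGACTCA) in 0 and 5.49%, and RUNX (TGTGGTT) in 0 and 5.93%. STAT5 (TTCNNNGAA) matched in 2 of 12, both at Tgfbr2 and inside the peaks of both WT lists, and in 3.77% of all. In the region 2.88 kb upstream of Tgfbr2 the match, TTCTGAGAA, was centred on the WT G summit. The SMAD palindrome (GTCTAGAC, at most 1 mismatch) matched in 0 of 12 and in 2.02% of all. The box CAGACA occurred in 2 of 12, both at Ski, and in 9.73% of all, and it lay inside the peaks of both WT lists in the strongest Ski region only. In windows 500 bp to either side of the shared summits that box occurred in 10.1%, STAT5 in 3.37% and the DR1 in 1.55%, so the box and STAT5 were about as frequent beside the summits as at them.

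The genotypes were compared by the number of peaks at the 10 genes. The mean was 21.5 ± 12 peaks in the WT (SD, n = 2) and 0 ± 0 in the KO (SD, n = 2), and the WT and KO libraries did not overlap. The whole lists did not overlap either, at 4751 and 9766 WT peaks against 83 and 208 KO peaks. Only 0.351% of all protein-coding genes were nearest to a KO A peak and 0.858% to a KO G peak. The count therefore cannot say whether binding at these genes in particular depended on the receptor. With 2 against 2 libraries, the two-sided p of the exact permutation test was 0.333, which is the lowest it can reach. The WT minus KO difference of 21.5 peaks fell to 11.5 with −log10 q of at least 5. It fell to 13 with WT lists of equal length, and also to 13 without WT G. None of the 12 shared regions overlapped a KO peak, beside 94.1% of all shared regions with no KO peak, so the 12 were near the background in this respect.

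The same counts were also taken as shares of each list. The 10 genes took 0.274% of the WT A list (13 of 4751, exact binomial 95% interval 0.146% to 0.467%) and 0.307% of the WT G list (30 of 9766, 0.207% to 0.438%). A count of 0, taken as fewer than 3 counts, allows a share of up to 3.61% of the 83 KO A peaks and up to 1.44% of the 208 KO G peaks, and the upper bounds of the exact binomial 95% intervals were 4.35% and 1.76%. These intervals and limits cover counting error only. At the WT shares, lists as short as KO A and KO G would hold 0.227 to 0.255 and 0.569 to 0.639 peaks at these genes. The length of the KO lists is itself part of the difference between genotypes, so these shares bear on whether the 10 genes differed from other genes and not on whether peaks were lost. The fragments at the summits were also scaled to the depth of the KO libraries. Scaled from WT A to KO A, they reached the lowest number found in the KO A list (10) in 3 of 12 regions, the strongest of each gene, and in 46.6% of all shared regions. At those 3, 26 fragments at Ski became 14.9, 21 at Skil became 12 and 20 at Tgfbr2 became 11.4. Scaled from WT A to KO G (lowest number 8), or from WT G to either KO library, all 12 regions and 100% of all shared regions reached it, so these comparisons did not separate the 12 from the rest. From WT G they could not: its lowest peak rested on 5 fragments, and the scaling multiplied by 2.73 (KO A) or 3.58 (KO G). The scaling used depth alone and took no account of fragment length. The part of depth in the missing KO peaks was not tested.

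Tgfb1, the ligand gene, spans chr7:25687002-25705077 on the plus strand (ENSMUSG00000002603.15) and had 1 peak of its own. That WT G peak, chr7:25689322-25689544 in intron 1, had a fold enrichment of 5.16 on 7 fragments and no partner in WT A. A far stronger region began 165 bp past the 3′ end of the gene, at chr7:25705242-25708061, and was assigned to Ccdc97, whose TSS was 12.4 kb away, nearer than the Tgfb1 TSS at 19.6 kb. It held 1 WT G peak with a fold enrichment of 20.0 (−log10 q 36.4, rank 11 of the list) and 4 WT A peaks, the highest with 15.3 (−log10 q 30, rank 32). Both KO lists had a peak there as well. The fold enrichment was 9.59 in KO A (−log10 q 13.5, 21 fragments) and 5.93 in KO G (−log10 q 5.08, 15 fragments), below both WT values. Fold enrichment depends on depth, and this difference was not tested. Scaled to the depth of KO A, the 38 fragments of WT A became 21.8 and the 30 of WT G became 81.9, beside the 21 in KO A. Scaled to KO G they became 28.5 and 107, beside the 15 in KO G. The KO value was thus below the scaled WT value in 3 of the 4 pairs by a wide margin and close to it in the pair of KO A and WT A, and the WT libraries differed from each other. It was the only region within 50 kb of a TSS of the 10 genes with a peak in every list. In WT A and WT G the B9d2 promoter, 6.61 kb upstream of Tgfb1, also carried a region, with fold enrichments of 7.89 and 5.80.

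Tgfbr1, the gene of the type I receptor, spans chr4:47353222-47414931 on the plus strand (ENSMUSG00000007613.15). No peak of any list lay in the gene or was assigned to it. The nearest region in both WT lists, chr4:47315134-47315919, was intergenic, 37.7 kb upstream of Tgfbr1 and 11.8 kb from a start site of Col15a1, a collagen gene, to which it was assigned. Its fold enrichment was 9.07 in WT A (−log10 q 12.4, 22 fragments) and 13.5 in WT G (−log10 q 20.3, 20 fragments), with summits 46 bp apart and no KO peak. When each gene was given only the 5′ end of its record as TSS, this region was nearest to Tgfbr1, so its assignment rested on the choice of TSS. Its fold enrichment was above that of the strongest Ski region in WT G and below it in WT A.

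**Figure D4:**
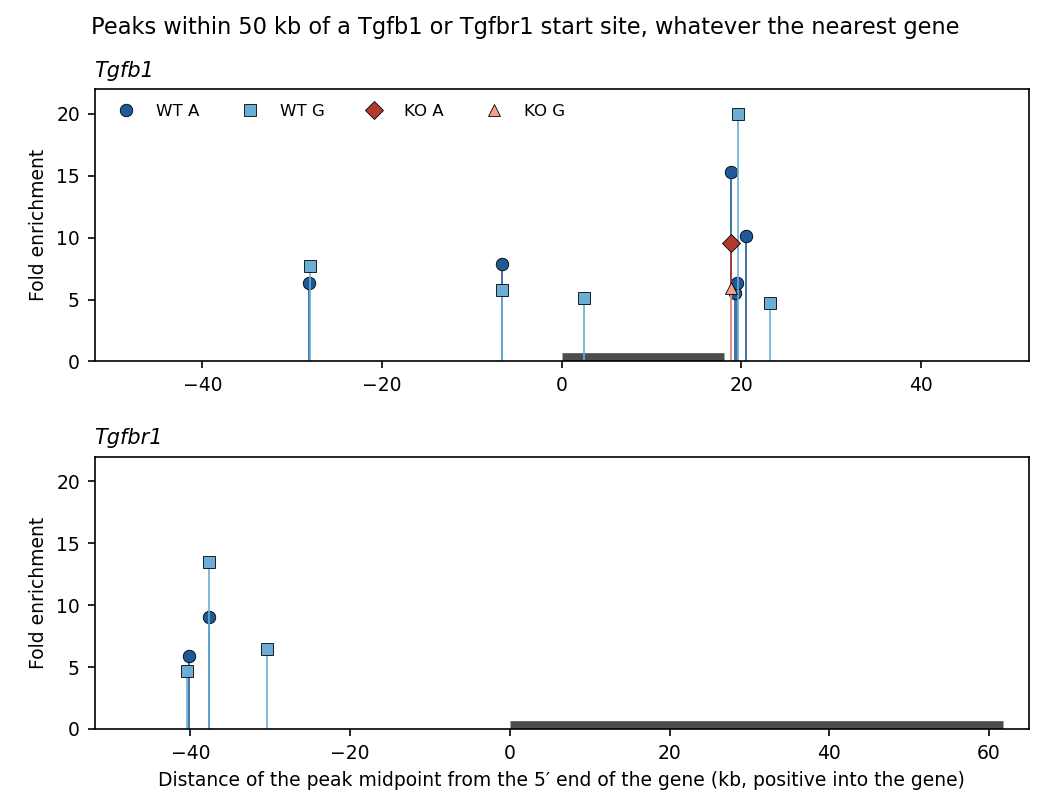
Fold enrichment (y axis) of all peaks within 50 kb of a start site of Tgfb1 or Tgfbr1, in each library, against the distance of the peak midpoint from the 5′ end of the gene (x axis, kb), with the gene as a dark bar. Just past the 3′ end of Tgfb1 all 4 libraries have a peak, the highest of each library running from 5.93 in KO G to 20.0 in WT G. The peaks upstream of Tgfbr1 are from WT A and WT G only.

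The SMAD genes, which transmit or inhibit the signal inside the cell, had 1 assigned peak among them, in WT G. Over all protein-coding genes 10.4% were nearest to a WT A peak and 16.6% to a WT G peak. A count this low at the SMAD genes was thus near the background and does not set them apart from other genes. Smad3 (chr9:63646767-63757994) had its nearest WT peak 415 kb from its TSS, and Smad6 (chr9:63953076-64022059) 151 kb. Smad2 (chr18:76241580-76310963) had its nearest WT peak at 878 kb and Smad4 (chr18:73639009-73703780) at 113 kb. Smad7, the inhibitory SMAD (chr18:75367529-75395935), had 1 WT G peak 4.08 kb upstream, with a fold enrichment of 6.45 (−log10 q 5.73, 9 fragments) and no partner in WT A, where the nearest peak of any gene was 2335 kb away. At the depth of these libraries weaker binding at these genes was not detectable, since the lowest peak rested on 10 fragments in WT A and 5 in WT G.

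Other genes of the TGF-β superfamily and its regulators, 35 in all, were counted in the same way. A region shared by the WT lists was nearest to 5 of these, beside 8.82% of all protein-coding genes. In the KO lists 0 of the 35 had a peak, beside 0.351% (KO A) and 0.858% (KO G) of all protein-coding genes, so this 0 was near the background. Zeb2, a SMAD-binding repressor, had 5 such regions, with its strongest at 10.2-fold enrichment in WT A and 11-fold in WT G, 1254 kb upstream of its TSS. Smad1, a SMAD of the BMP branch, had 3, with its strongest at 7.50 and 7.01, 75.6 kb upstream. Tgif1, a corepressor, had 1 in its promoter, at 9.07 and 9.03. Inhba, which encodes an activin subunit, had 1 at 8.68 and 11, 164 kb upstream. Acvrl1, a type I receptor gene, had 1 at 6.72 and 7.09. Acvr1b, Pmepa1, Lrrc32 and Nrros had peaks in WT G alone. With them, 9 of the 35 were nearest to a WT G peak, beside 16.6% of all protein-coding genes.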

How the data were processed

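The authors used Cutadapt 1.7.1 for trimming, Bowtie2 for alignment to mm10 and samtools 0.1.18 for filtering, and called peaks for each library against the input with MACS3 3.0.0a5 at q 0.05, without pooling. The deposited fold enrichment is a ratio of pileup to background at the summit, each with 1 added. The deposited −log10 p and −log10 q are summit values, and the deposited score is derived from the −log10 q. The deposited summit position was used as given. The read count model of the study needs counts, which peak lists do not hold.

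Peaks were compared in Python 3.11.15 (scipy 1.17.1, pysam 0.24.0). Regions in both WT lists were merged peaks that overlapped by at least 1 bp. Genes came from GENCODE M21 (basic set), and a promoter covered 1 kb before and 100 bp after a TSS. Fragments at each summit were solved from fold enrichment and −log10 p as deposited, to within 0.02 of a whole number, and depth from background and shortest peak length. Steps were tested on simulated data. Percentiles rank a list by fold enrichment, and a gene's strongest region had the smallest sum of WT ranks by −log10 q. Named were all 10 genes, all their shared regions, and listed pathway genes with a shared region, with genes bound in WT G alone added after their values were seen. The genes and lists were chosen with earlier results of these data known. Alternatives covered q, list length, TSS set, overlap, distance, motif settings and libraries left out.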

Additional observations from a re-analysis of the deposited data

How the results depend on the processing

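Of 62 alternative values of 7 results, 53 kept the direction (the WT minus KO difference) or stayed close to the main value (the other results). Counts were taken as close within 1.5 times the main value. The largest shift of a median percentile taken as close was from 41.4 to 35.7, in WT G with TSSs of all genes. The WT minus KO difference kept its direction but fell from 21.5 to 11.5 with −log10 q of at least 5 and to 13 with WT lists of equal length, as the WT G peaks fell from 30 to 12 and 13. With −log10 q of at least 5, shared regions fell from 12 to 7, all 7 with no KO peak, and the median percentile in WT A moved from 51.6 to 40.1. With an overlap of at least 50% of both peaks, 5 shared regions were left, all 5 with no KO peak. Counting every region within 50 kb of a TSS of the 10 genes raised the genes with a shared region from 3 to 5, by adding Tgfb1 and Tgfbr1, and left 0 with a DR1. The DR1 count of 1 also became 0 with TSSs of all genes and with at most 1 mismatch. Leaving out one library at a time gave a WT minus KO difference of 13 to 30 peaks: 30 without WT A, 13 without WT G. Both KO libraries were at 0. With the letters A and G as a replicate block the difference was 21.5 (exact permutation test, p = 0.5, the smallest 2 pairs allow); the labels do not say that the letters pair animals. Regions near the calling limit rested on few fragments, the depth of WT G was the lowest, and peaks below the q threshold are not in the lists.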
